A study of Mus musculus with 4 samples.

Results

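The transcripts of 10 receptor genes for hematopoietic cytokines and growth factors were followed in leukemic stem cells (LSCs) with and without CD37. The genes are *Kit*, *Flt3*, *Csf1r*, *Csf2ra*, *Csf2rb*, *Csf2rb2*, *Csf3r*, *Il3ra*, *Il6ra* and *Ifngr1*. They were listed by name as receptors of the myeloid lineage, with the sorting marker *Kit* among them, and 10 of 10 were found among the 17104 genes of the expression table. CD37 is a tetraspanin, a membrane protein of blood cells, and the study asked what its loss does to acute myeloid leukemia (AML) driven by the fusion oncogene MLL-AF9. YFP+, c-kit+ LSCs were sorted from the bone marrow of male C57 mice 6 weeks after transplantation, in the second round of serial transplantation, and poly(A) RNA of 2 libraries per genotype was sequenced.

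All 4 libraries descend from lineage-negative marrow cells of mice with a loxP-flanked *Cd37* gene and a tamoxifen-inducible Cre that is expressed from the ubiquitous Rosa26 locus. These cells had been infected with a retrovirus for MLL-AF9 and YFP, in medium with IL-3, IL-6, stem cell factor and G-CSF, before they were given to sublethally irradiated C57 recipients. Recipients in the first round were injected with tamoxifen, which gave CD37-/- cells, or with corn oil, which left the gene intact in the controls (genotype CD37fl/fl, called WT in the sample titles). The controls therefore carry the floxed allele, the Cre and the fusion oncogene as well, and the treated arm differs in tamoxifen as well as in *Cd37*. Whether the 2 libraries of a genotype came from separate mice is not stated, so the p-values measure the spread between these libraries.

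The receptors fall into 3 groups. Kit (the receptor of stem cell factor), Flt3 and Csf1r (the receptor of M-CSF) are receptor tyrosine kinases, each of which binds its ligand as a homodimer and phosphorylates itself. The receptors of GM-CSF and IL-3 each pair a ligand-specific alpha chain, encoded by *Csf2ra* and *Il3ra*, with a beta chain that carries JAK2 and activates STAT5. Mice have a common beta chain, encoded by *Csf2rb*, and a closely related beta chain for IL-3 alone, encoded by *Csf2rb2*. Csf3r is the G-CSF receptor of granulocytes and their precursors, Il6ra binds IL-6 and signals through gp130, and Ifngr1 is the ligand-binding chain of the interferon-gamma receptor. GM-CSF and IL-3 sustain the growth of myeloid progenitors, and c-kit marks immature leukemia cells in this model.

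Expression was deposited as FPKM, which counts fragments per kilobase of gene, scaled to the depth of the library. The kilobases were those of the whole gene span, introns included. Levels are therefore compared between genes here only as FPKM recomputed per exon length. Whether reads in introns were counted is not given in the sources used here. If they were, levels per exon length are too high for genes with many such reads. Reads were recovered from the FPKM values for 98.9% of values within a tolerance of 0.05 reads, which 10% would meet by chance, and they implied depths of 15327357 to 22627491 reads per library. *Cd37* had an FPKM of 56.6 and 46.8 in CD37fl/fl replicates 1 and 2 and of 23.2 and 22.9 in CD37-/- replicates 1 and 2. The deletion removes some of its exons only, and the remaining reads were not assigned to exons here. Of the markers of MLL-AF9 leukemia and myeloid identity, *Hoxa9*, *Meis1*, *Elane* and *Spi1* were expressed in all 4 libraries, and the summed exon-length FPKM of the 8 markers measured was between 3949 and 4218. Of 7 markers tested, 2 were higher and 1 was lower without CD37 at an unadjusted p under 0.05, and 4 did not pass. Over all genes tested, 16.1% were higher and 7.96% lower at this threshold. *Mpo*, myeloperoxidase of granulocyte progenitors, was lower (log2 fold change -1.24, adjusted p = 0.141, limma). *Hoxa10* (1.01, adjusted p = 0.101, limma) and *Ptprc* (0.87, adjusted p = 0.117, limma) were higher.

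The alpha chains of the GM-CSF and IL-3 receptors moved in opposite directions. *Csf2ra* (ENSMUSG00000059326, chr19:61223957-61228429, minus strand, GRCm38) had an FPKM of 30.0 and 25.5 in CD37fl/fl replicates 1 and 2 and of 79.3 and 127 in CD37-/- replicates 1 and 2. These values rest on 2060 and 1979 reads in the CD37fl/fl libraries and on 6292 and 12807 reads in the CD37-/- libraries. Each CD37-/- library was above each CD37fl/fl library. The means were 27.8 ± 3.19 and 103 ± 33.4 (SD, n = 2 each), a 3.70-fold difference. On the log2(FPKM + 1) scale the change was 1.82 (standard error 0.32, 95% interval 1.03 to 2.60), with an unadjusted p of 0.0014 and an adjusted p of 0.0758 (limma, Benjamini-Hochberg over 6761 genes). The difference was thus larger than the spread between replicates at the unadjusted p and missed the adjusted threshold of 0.05. In a bulk library, more cells with the transcript and more transcript per cell cannot be told apart.

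*Il3ra* (ENSMUSG00000068758, chr14:14346275-14356011, plus strand), the alpha chain for IL-3, was lower without CD37. Its FPKM was 13.6 and 11.4 in CD37fl/fl LSCs and 4.89 and 4.34 in CD37-/- LSCs, in the order of the replicates. The reads were 2027 and 1931 against 845 and 957. The groups did not overlap, and both CD37-/- values lay close together. The mean fell from 12.5 ± 1.51 to 4.62 ± 0.388 (SD, n = 2 each), so that 36.9% of the CD37fl/fl level was left. On the log2 scale the change was -1.26 (standard error 0.21, 95% interval -1.77 to -0.76), with an unadjusted p of 9.75e-04 and an adjusted p of 0.0717 (limma). An antisense gene, *Gm48860*, overlaps the start of *Il3ra*. The libraries kept strand (dUTP method), but whether the counting used it is not given in the sources used here.

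Since *Csf2ra* and *Il3ra* share a beta chain for signaling, their ratio within a library describes the balance of the alpha chain transcripts and does not depend on how libraries are scaled. Per exon length, *Csf2ra* and *Il3ra* were at near equal levels in the CD37fl/fl libraries, with ratios of 1.05 and 1.06. The gene span is 1.56 times the exon length for *Csf2ra* and 3.28 times for *Il3ra*. Reads in introns, if counted, could therefore shift the ratios, and near equal transcript numbers are not shown. In the CD37-/- libraries the ratios were 7.70 and 13.8. The ratio of *Csf2rb* to *Il3ra* was 0.742 and 0.488 in CD37fl/fl LSCs and 2.68 and 4.40 in CD37-/- LSCs. By this measure *Il3ra* had the higher level of the pair in the controls and *Csf2rb* in the CD37-/- LSCs. The ratio of *Csf2ra* to *Csf2rb* was 1.42 and 2.17 in the controls and 2.87 and 3.14 without CD37. These 3 ratios had no overlap between the genotypes. For the ratios over *Il3ra* this had to follow, since *Csf2ra* and *Csf2rb* were each apart upward and *Il3ra* downward. It therefore adds no support to the changes of the single genes. The share of other gene pairs without overlap was not counted. An exact permutation test of 2 against 2 libraries cannot give a two-sided p below 0.333, so that no test of a single ratio was made.

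**Figure D1:**
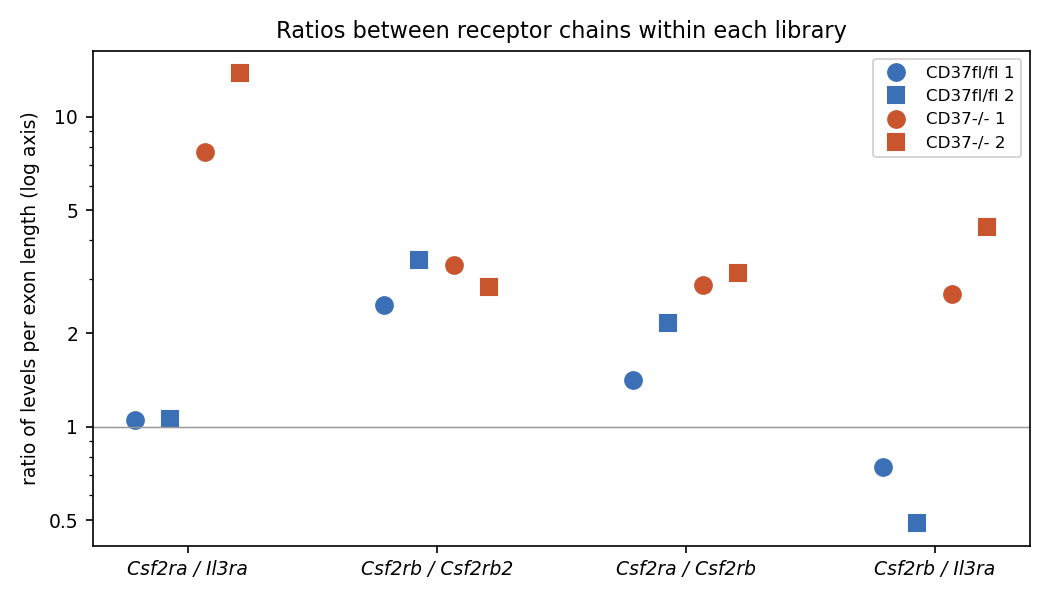
Ratios between receptor chain transcripts within each library, from FPKM per exon length, on a log axis. Each point is 1 library, blue for CD37fl/fl and orange for CD37-/-, with circles for replicate 1 and squares for replicate 2. *Csf2ra* over *Il3ra* goes from 1.05 and 1.06 to 7.70 and 13.8, while *Csf2rb* over *Csf2rb2* overlaps between the genotypes.

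*Csf2rb* (ENSMUSG00000071713, chr15:78325752-78353847, plus strand), the common beta chain, had an FPKM of 8.56 and 4.75 in CD37fl/fl replicates 1 and 2 and of 11.2 and 16.3 in CD37-/- replicates 1 and 2. The reads were 3687 and 2313 against 5563 and 10337. The groups did not overlap, though the replicates of each genotype lay far apart. The means were 6.66 ± 2.69 and 13.7 ± 3.61 (SD, n = 2 each), a 2.06-fold difference. The log2 fold change was 0.97 (standard error 0.33, 95% interval 0.16 to 1.77), with an unadjusted p of 0.0267 and an adjusted p of 0.162 (limma). Without CD37fl/fl replicate 2 it was 0.60 (unadjusted p = 0.137, limma), and without CD37-/- replicate 2 it was 0.71 (unadjusted p = 0.125, limma). The call at the unadjusted p rests on each of these libraries.

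*Csf2rb2* (ENSMUSG00000071714, chr15:78282507-78305721, minus strand), the IL-3-specific beta chain, lies beside *Csf2rb* on the opposite strand. Its FPKM was 2.74 and 1.08 in CD37fl/fl LSCs and 2.65 and 4.53 in CD37-/- LSCs, so that CD37-/- replicate 1 was below CD37fl/fl replicate 1. The log2 fold change was 0.69 (95% interval -0.17 to 1.54, adjusted p = 0.272, limma), and the unadjusted p was 0.0965. Without CD37fl/fl replicate 2 it was 0.27, without CD37-/- replicate 2 it was 0.39, and without CD37fl/fl replicate 1 it was 1.11. The ratio of *Csf2rb* to *Csf2rb2* per exon length was 2.47 and 3.46 in the controls and 3.32 and 2.83 without CD37, which overlapped. *Csf2rb* was thus the more abundant beta chain transcript in each of the 4 libraries.

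The values of both beta chain genes are uncertain because they share sequence. Of the stretches of 50 bases in their annotated transcripts, 892 were common to both, which is 12.3% of those of *Csf2rb* and 18.4% of those of *Csf2rb2*. A read that lies wholly within such a stretch fits both genes. The longest identical run within coding exons is printed here to show the extent of the overlap. It spans 242 bases of exon 14 of *Csf2rb* (chr15:78348577-78348818, plus strand) and of exon 14 of *Csf2rb2* (chr15:78284630-78284871, minus strand), in coding sequences of 2688 and 2634 bases. It is written in the sense direction from the GENCODE M21 transcripts on GRCm38, in lower case throughout since all of its bases are the same in both genes.
Csf2rb and Csf2rb2, shared coding stretch: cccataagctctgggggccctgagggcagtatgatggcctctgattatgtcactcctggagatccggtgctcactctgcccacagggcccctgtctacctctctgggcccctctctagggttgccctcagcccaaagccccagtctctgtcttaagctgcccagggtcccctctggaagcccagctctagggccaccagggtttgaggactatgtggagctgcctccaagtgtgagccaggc

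**Figure D2:**
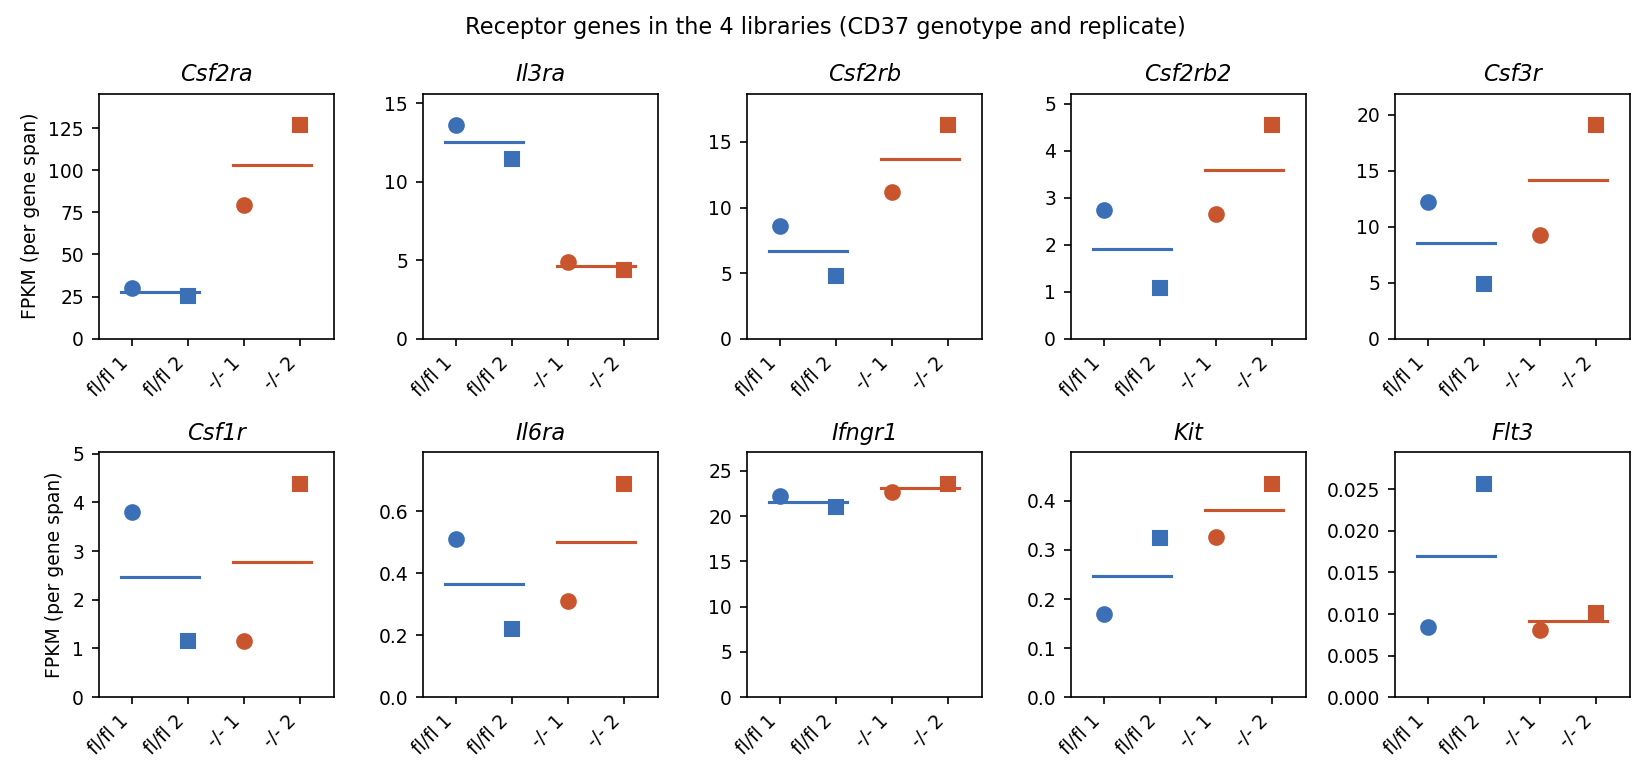
FPKM of the 10 receptor genes in each library, on linear axes that start at 0 and differ between genes. Points are libraries, blue for CD37fl/fl and orange for CD37-/-, and lines are the means of 2 libraries. *Csf2ra* and *Csf2rb* are higher and *Il3ra* is lower in both CD37-/- libraries, while *Csf1r*, *Csf3r*, *Csf2rb2* and *Il6ra* overlap between the genotypes.

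*Csf2ra* had the largest change among the receptors, and its promoter is shown for that reason. The sequence is RefSeq's for GRCm38.p6, from 250 to 12 bases before the start of the gene (chr19:61228430-61228668, minus strand, written 5′ to 3′ in the direction of transcription). Sites were searched on both strands as the letters GAGGAA (the core of PU.1 sites), TGTGGT (RUNX), TTGCNNAA (like those of C/EBP) and TTCNNNGAA (STAT), where N is any base. None of these 4 was found in this window. The palindrome TGACGTCA, known as a cAMP response element, was noticed on reading the sequence and then counted. It is written in capitals, begins 92 bases before the start, and was found in 1.4% of the 32851 promoter windows of the same length.
Csf2ra promoter: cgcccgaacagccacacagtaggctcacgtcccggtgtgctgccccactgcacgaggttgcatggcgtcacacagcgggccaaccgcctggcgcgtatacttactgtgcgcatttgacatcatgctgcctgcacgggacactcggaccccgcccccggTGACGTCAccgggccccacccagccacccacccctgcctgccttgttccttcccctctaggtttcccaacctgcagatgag

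RefSeq promoter windows were found for 8 of the 10 receptor genes. GAGGAA occurred in the windows of *Il6ra*, *Csf3r*, *Kit* and *Csf2rb2*, against 22.1% of all windows. TTGCNNAA occurred in that of *Il3ra* alone among these 8, against 9.3% of all windows. TGTGGT (13.6% of all windows) and TTCNNNGAA (6.7%) occurred in 0 of the 8. The genes with GAGGAA included some with log2 fold changes near 0, and a match of letters is a description of the sequence only.

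*Csf3r* (ENSMUSG00000028859, chr4:126024550-126044440, plus strand), the G-CSF receptor, varied more within each genotype than between them. Its FPKM was 12.2 and 4.89 in CD37fl/fl replicates 1 and 2 and 9.24 and 19.0 in CD37-/- replicates 1 and 2. The lowest and the highest library belonged to different genotypes, but CD37-/- replicate 1 was below CD37fl/fl replicate 1. It had a log2 fold change of 0.70 (95% interval -0.51 to 1.91, adjusted p = 0.402, limma). It was 0.12 without CD37fl/fl replicate 2, 0.22 without CD37-/- replicate 2 and 1.28 without CD37fl/fl replicate 1. Of its stretches of 50 bases, 8.84% also occur in *AC105061.2*, the gene that shares the most with it. Stretches were shared with 190 other genes in all, and the share over all of them was not counted.

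*Csf1r* (ENSMUSG00000024621, chr18:61100598-61132149, plus strand), the M-CSF receptor of monocytes and macrophages, was high in 1 library of each genotype. Its FPKM was 3.79 in CD37fl/fl replicate 1 and 4.38 in CD37-/- replicate 2, and it was 1.16 in each of the other 2 libraries. The log2 fold change was 0.08 (95% interval -1.25 to 1.42, adjusted p = 0.935, limma), an interval that holds changes of more than 2-fold in either direction. The sign turned negative after quantile normalization (-0.12), without CD37fl/fl replicate 2 (-0.49) and without CD37-/- replicate 2 (-0.57), and the value was 0.66 without CD37fl/fl replicate 1 and 0.74 without CD37-/- replicate 1.

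*Il6ra* (ENSMUSG00000027947, chr3:89864059-89913196, minus strand), the alpha chain for IL-6, was likewise highest in CD37-/- replicate 2 and next in CD37fl/fl replicate 1, at a lower level. Its FPKM was 0.513 and 0.220 in CD37fl/fl LSCs and 0.312 and 0.689 in CD37-/- LSCs, from 386, 187, 272 and 766 reads. Its log2 fold change was 0.13 (95% interval -0.44 to 0.70, adjusted p = 0.741, limma over 16973 genes above 0). With limma-voom on the reads, which does not compress low values, it was 0.52 (adjusted p = 0.547). The value of 0.13 turned negative after quantile normalization (-0.01), without CD37fl/fl replicate 2 (-0.02) and without CD37-/- replicate 2 (-0.05). It was 0.29 and 0.31 without the other library of each genotype.

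This order, CD37fl/fl replicate 1 above 2 together with CD37-/- replicate 2 above 1, was met by 7 of the 10 receptor genes and by 19.7% of the genes that reached a mean FPKM of 1. The 7 were *Csf1r*, *Csf2ra*, *Csf2rb*, *Csf2rb2*, *Csf3r*, *Il6ra* and *Ifngr1*. Of the 10, *Il6ra*, *Kit* and *Flt3* did not reach that mean, so the 2 shares are over unlike sets. Of 14 monocyte and macrophage markers, 11 of which reached that mean, 13 had the same order. Their share of all reads was 0.288% and 0.149% in CD37fl/fl replicates 1 and 2 and 0.167% and 0.275% in CD37-/- replicates 1 and 2. The markers *Lyz2*, *Cd68*, *Cd14* and *Ly6c2* were expressed in all 4 libraries and 0 of the 14 markers were at 0 in any library. The part of monocytes and macrophages in the values of *Csf1r*, *Csf2rb* and *Il6ra* was not tested.

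Late neutrophil markers, which follow G-CSF signaling in normal granulopoiesis, also differed between the libraries. All 12 of them were higher in CD37fl/fl replicate 1 than in replicate 2, and their share of reads was 3.56% and 0.717% in these libraries and 3.45% and 2.31% in CD37-/- replicates 1 and 2. *Csf3r*, *Csf2rb* and *Csf2rb2* were likewise lowest in CD37fl/fl replicate 2, but were highest in CD37-/- replicate 2, where the neutrophil share was below that of CD37-/- replicate 1. Of the 12 markers, *Cxcr2*, a chemokine receptor of mature neutrophils, was higher without CD37 at an unadjusted p under 0.05 (log2 fold change 1.66, adjusted p = 0.196, limma), and the other 11 did not pass, beside 16.1% of all genes higher. The median of the 12 was 1.18. The count of 1 rests on the controls, since it was 12 without CD37fl/fl replicate 1 (median 2.19) and 0 without CD37fl/fl replicate 2 (median 0.33). It was 7 after TPM rescaling, where the median of all genes was 0.40. It was also 7 with limma-voom on the reads, where 3270 of all 12901 genes passed in either direction. It was 0 when all genes above 0 were fitted, where 12.6% of all genes were higher. The part of neutrophil-lineage cells in the receptor values was not tested.

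**Figure D3:**
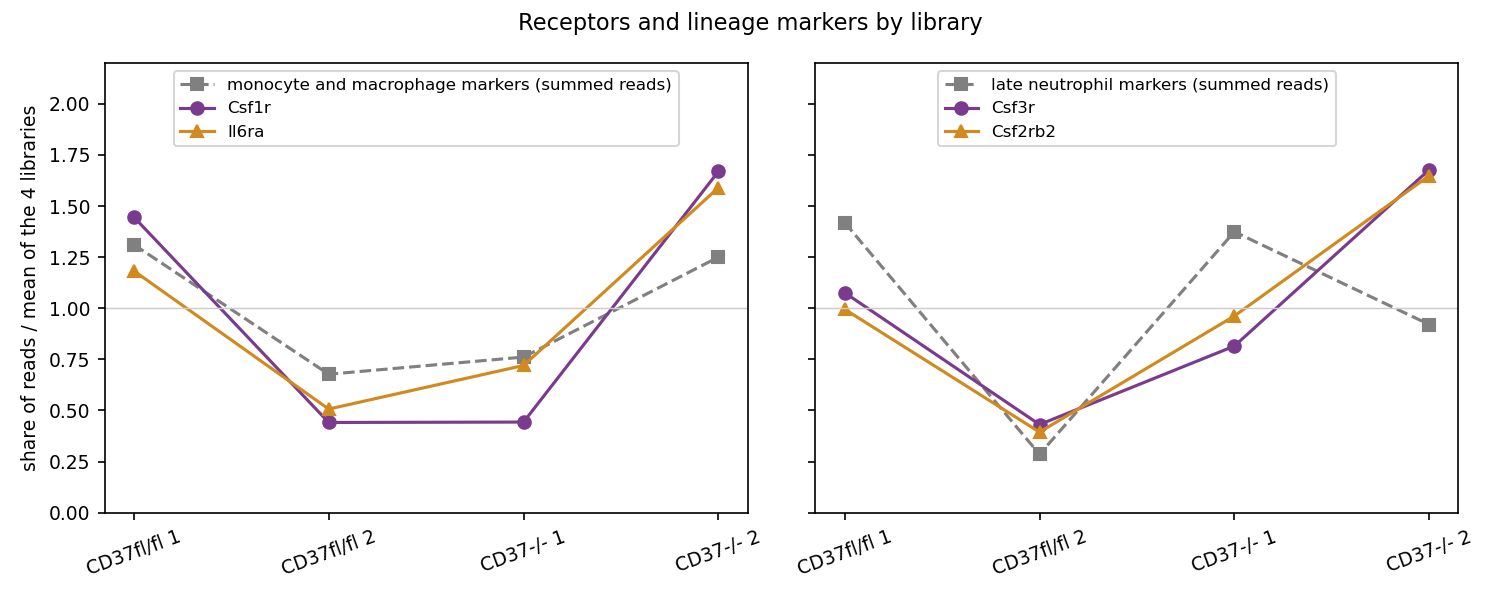
Share of reads of 4 receptor genes and of lineage markers in each library, each divided by its mean over the 4 libraries. On the left *Csf1r* and *Il6ra* are drawn with the summed reads of 14 monocyte and macrophage markers, and all 3 lines are high in CD37fl/fl replicate 1 and CD37-/- replicate 2. On the right *Csf3r* and *Csf2rb2* are drawn with the summed reads of 12 late neutrophil markers, and all 3 lines are lowest in CD37fl/fl replicate 2.

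Markers of other lineages were measured beside the alpha chains as well. The summed exon-length FPKM of 9 erythroid markers was 122 and 48.8 in CD37fl/fl LSCs and 964 and 287 in CD37-/- LSCs. The groups were apart in the direction of *Csf2ra*, as were those of 38.2% of the single genes tested. The 4 that passed an unadjusted p under 0.05 among 5 tested, beside 16.1% of all genes higher, were the globin genes *Hba-a1*, *Hba-a2*, *Hbb-bs* and *Hbb-bt*. The median log2 fold change of the 5 was 3.34, and between 2.36 and 4.32 with 1 library left out. *Il3ra* is known from mast cells, basophils and plasmacytoid dendritic cells. The summed level of 7 mast cell and basophil markers was 21.6 and 52.0 in the controls and 51.3 and 27.4 without CD37, which overlapped. Of these 7, 2 were tested, and *Prss34*, a protease of basophils, was higher without CD37, against the direction of *Il3ra*, at FPKM values of 0.552 and 0.0977 in the controls and 5.66 and 2.02 without CD37 (log2 fold change 1.78, adjusted p = 0.106, limma). The other tested marker, *Mcpt8*, was at 0.01. In the fit of all genes above 0, *Gata2* (-0.89) and *Cpa3* (-0.04) were lower, and *Hdc* (0.51), *Ms4a2* (0.07) and *Fcer1a* (0.06) higher. *Fcer1a* was at 0 reads in both CD37fl/fl libraries. The summed level of 10 dendritic cell markers, *Flt3* among them, was 1088 and 142 in the controls and 50.0 and 180 without CD37, which overlapped too, and *Xcr1* was at 0 reads in both CD37-/- libraries. The 3 tested, *H2-Aa*, *H2-Ab1* and *Cd74*, were lower (-1.22, -1.80 and -2.00), in the direction of *Il3ra*, and 0 passed an unadjusted p under 0.05 (limma). Their median of -1.80 was -0.51 without CD37fl/fl replicate 1. With limma-voom on the reads 3 of 6 were lower at this threshold, beside 3270 of all 12901 genes in either direction. B cell markers summed to 71.2 and 57.8 against 38.6 and 59.9. Of the 2 tested, *Cd79b*, a chain of the B cell receptor, was lower, in the direction of *Il3ra*, at 12.5 and 15.3 against 8.02 and 6.16 (log2 fold change -0.89, adjusted p = 0.129, limma). The other, *Ighm*, was at -0.05. With limma-voom on the reads, the 5 B cell markers fitted went both ways, at 1.21 (*Cd79a*), 0.04 (*Vpreb1*), -0.03 (*Ighm*), -0.33 (*Ebf1*) and -0.99 (*Cd79b*). *Prss34*, *Cd79b* and the globin genes passed at an unadjusted p under 0.05 and were named after their values were seen. T and NK cell markers summed to 1.11 and 1.97 against 3.43 and 1.72, and stromal and endothelial markers to 12.6 and 23.0 against 15.4 and 24.9. The part of these lineages in the change of *Csf2ra* and *Il3ra* was not tested.

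*Ifngr1* (ENSMUSG00000020009, chr10:19591949-19610229, plus strand), the ligand-binding chain for interferon-gamma, was the steadiest of the receptors. Its FPKM was 22.2 and 20.98 in CD37fl/fl LSCs and 22.7 and 23.6 in CD37-/- LSCs. Each CD37-/- value was above each CD37fl/fl value by a narrow margin. Between the genotypes it differed by 0.09 on the log2 scale (95% interval -0.45 to 0.64, adjusted p = 0.813, limma), close to the median of 0.11 over all genes tested, and it was 0.46 after TPM rescaling, where the median of all genes was 0.40.

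*Kit* (ENSMUSG00000005672, chr5:75574916-75656722, plus strand) encodes the protein by which the cells were sorted. Its FPKM was 0.170 and 0.325 in CD37fl/fl replicates 1 and 2 and 0.327 and 0.434 in CD37-/- replicates 1 and 2. The span of *Kit* is 9.18 times its exon length, and per exon length the levels were 1.56, 2.98, 3.00 and 3.99. The mean level of *Kit* per exon length stood at the 51.8th percentile of the genes in the table, a middling level by this measure. The sorting marker was measured by 213, 460, 474 and 804 reads. The groups were apart by a margin far below the spread between replicates. Its change on the log2 scale was 0.15 (95% interval -0.12 to 0.42, adjusted p = 0.442, limma over 16973 genes above 0), and 0.68 with limma-voom on recovered reads (adjusted p = 0.293), which does not compress low values. The data thus neither show a difference in *Kit* transcripts between the sorted populations nor limit it to a small one.

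*Flt3* (ENSMUSG00000042817, chr5:147330741-147400489, minus strand), a kinase of early and lymphoid-primed progenitors, was barely detected. It had 9 and 31 reads in the CD37fl/fl libraries and 10 and 16 reads in the CD37-/- libraries, which correspond to an FPKM of 0.00842 and 0.0257 against 0.00808 and 0.0101. CD37fl/fl replicate 2 was the highest, and the other 3 libraries were alike. The log2 fold change was -0.01 (95% interval -0.04 to 0.02, adjusted p = 0.597, limma over 16973 genes above 0), and -0.71 with limma-voom on the reads (adjusted p = 0.601). At this depth a difference in *Flt3* was not detectable. The antisense gene *Gm26597* overlaps *Flt3*.

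Per exon length, the order of the mean levels over the 4 libraries was *Ifngr1* (144), *Csf2ra* (102), *Csf3r* (62.5), *Csf2rb* (39.3), *Il3ra* (28.1), *Csf1r* (14.3), *Csf2rb2* (13.5), *Kit* (2.88), *Il6ra* (2.46) and *Flt3* (0.148), in FPKM recomputed per exon length. Neighbours in this order from *Ifngr1* to *Csf2rb2* overlapped in their ranges over the libraries, as did *Kit* and *Il6ra*. *Csf2rb2*, with levels of 5.31 to 22.2, did not overlap with *Kit* (1.56 to 3.99), and *Il6ra* (1.25 to 3.92) did not overlap with *Flt3* (0.0913 to 0.290). By this measure the 3 kinase receptors were among the less abundant receptors, and the chains for GM-CSF, G-CSF and interferon-gamma among the more abundant.

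Over the 10 genes together, receptor reads made up 0.138% and 0.0941% of all reads in CD37fl/fl replicates 1 and 2 and 0.145% and 0.219% in CD37-/- replicates 1 and 2. *Csf2ra* contributed 9.75% and 12.1% of these reads in the controls and 24.4% and 25.9% without CD37. The total of the 10 genes was thus above the controls in both CD37-/- libraries, by a small margin in CD37-/- replicate 1.

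The comparison of the genotypes was made across all genes, and the receptors were read against it. Of the 7 receptor genes that reached a mean FPKM of 1, 2 were higher (*Csf2ra* and *Csf2rb*) and 1 was lower (*Il3ra*) at an unadjusted p under 0.05 (limma). Over all 6761 genes tested, 16.1% were higher and 7.96% were lower at this threshold. At an adjusted p under 0.05, 0 receptor genes and 0.0% of all genes were called by limma, which had 1626 genes at an unadjusted p under 0.05. With limma-voom on recovered reads, 0.0% of 12901 genes were called at an adjusted p under 0.05 and 3270 had an unadjusted p under 0.05. The smallest adjusted p of any gene was 0.0502 (limma), beside 0.0758 for *Csf2ra* and 0.0717 for *Il3ra*. The rank of these genes among all genes tested was not counted. When all 16973 genes above 0 were fitted, *Csf2ra* stayed higher and *Il3ra* lower at an unadjusted p under 0.05, as 2 of 10 receptors, while 12.6% of all genes were higher and 4.59% lower, and *Csf2rb* did not pass (unadjusted p = 0.062, limma).

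Among the 7 receptor genes tested, the groups did not overlap in 3 that were higher (*Csf2ra*, *Csf2rb* and *Ifngr1*) and in 1 that was lower (*Il3ra*). Over the genes tested, 38.2% were higher and 23.7% lower without overlap, so that the share of receptors apart is close to that of genes at large. The median log2 fold change of the 7 was 0.69, beside 0.11 over all genes tested. It was 0.12 without CD37fl/fl replicate 2 and 0.22 without CD37-/- replicate 2, and 1.11 without CD37fl/fl replicate 1. A general rise of the receptors was thus not shown, since the median rests on the libraries that stood apart in *Csf3r* and *Csf2rb2*. *Csf2ra* ranged from 1.48 to 2.19 over 13 alternative analyses and *Il3ra* from -1.44 to -0.93, each with the same sign in all 13. All of these use the same libraries. Since the groups of both genes were apart, leaving a library out could not change the sign.

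**Figure D4:**
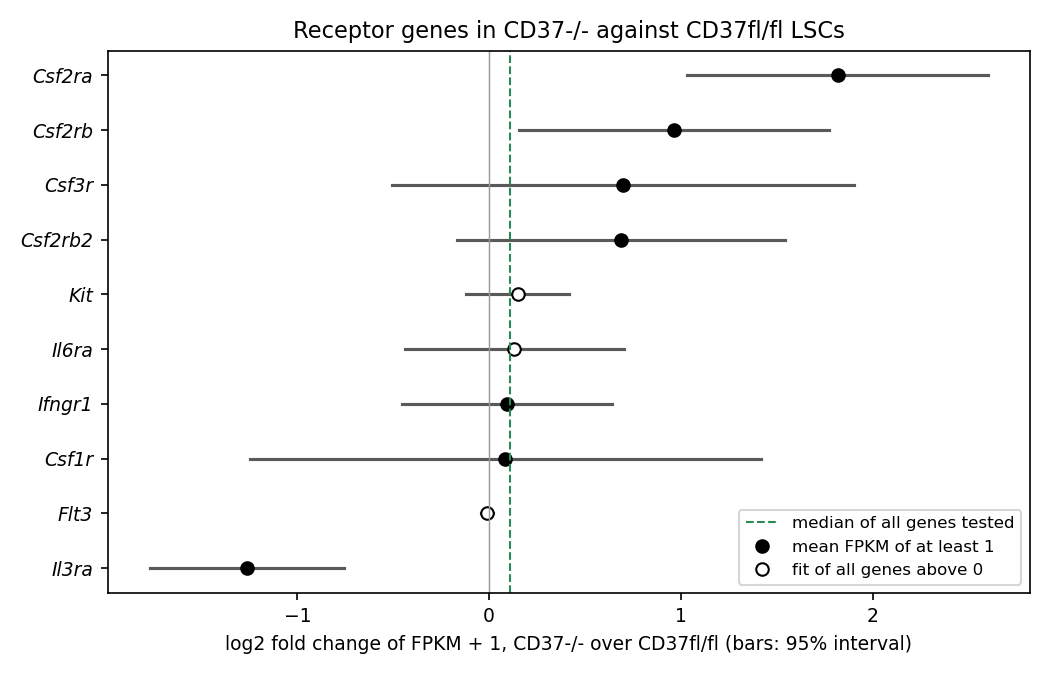
Log2 fold change of FPKM + 1 in CD37-/- over CD37fl/fl LSCs for the 10 receptor genes, with 95% intervals from limma. Open points are the 3 genes with a mean FPKM under 1, from the fit of all genes above 0, whose changes are compressed by the pseudocount. The intervals of *Csf2ra*, *Csf2rb* and *Il3ra* exclude 0, and the dashed line is the median of all genes tested at 0.11.

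Transcripts of the measured ligands were scarce in the LSCs. Of 10 ligand genes, 5 were measured and 0 reached a mean FPKM of 1. *Csf1*, which encodes M-CSF, had an FPKM of 0.480 and 0.294 in CD37fl/fl LSCs and of 0.705 and 1.97 without CD37. The groups did not overlap. The limma fit of all 16973 genes above 0 gave *Csf1* a log2 fold change of 0.70 (adjusted p = 0.356). Fitted by limma-voom on the reads, which does not compress low values, it was 1.70 (unadjusted p = 0.020, adjusted p = 0.131). By that test 3270 of all 12901 genes had an unadjusted p under 0.05 in either direction. *Il3* had 0 reads in each library, and *Il6*, *Il34* and *Csf3* had at most 17 reads in a library. Counting error alone allows up to 3 reads where 0 were seen. Of the partner chains, *Ifngr2* (interferon-gamma) had a log2 fold change of 0.11 (adjusted p = 0.793, limma) and *Il6st* (gp130) one of -0.05 (adjusted p = 0.874, limma over 16973 genes above 0), on FPKM values of 1.66 to 2.85 and of 0.0882 to 0.336. *Kitl*, *Flt3l*, *Csf2*, *Il5*, *Ifng* and *Il5ra* were listed but not found among the genes of the expression table.

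Further cytokine receptors of blood cells had a median change equal to that of genes at large when all 4 libraries were fitted. Of 31 listed, 27 were measured and 8 had a mean FPKM of at least 1, of which 1 was higher and 0 were lower at an unadjusted p under 0.05. This count is near the 16.1% of all genes that were higher. The gene was *Tnfrsf1b*, a receptor of tumor necrosis factor, with an FPKM of 1.77 and 0.974 in the controls and 2.15 and 3.27 without CD37 (log2 fold change 0.65, adjusted p = 0.195, limma). The median of the 8 was 0.11, as was that of all genes, and became negative (-0.09) after quantile normalization. With 1 library left out it lay between -0.07 and 0.46, while that of all genes lay between 0.07 and 0.13. With TPM rescaling, where the median of all genes was 0.40, 3 of the 8 passed, and with quantile normalization 0. With limma-voom on the reads 5 of 23 passed, beside 3270 of all 12901 genes in either direction. When all genes above 0 were fitted, 3 of 27 were higher and 0 lower, beside 12.6% and 4.59% of all genes.

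Among genes that relay the receptor signal, those that passed were all higher. Of 18 kinases, adaptors and STAT factors, 11 were tested, and 5 were higher and 0 lower at an unadjusted p under 0.05, while 6 did not pass. Among all genes tested, 16.1% were higher and 7.96% lower at this threshold. *Stat3*, the STAT factor downstream of IL-6 and G-CSF, had an FPKM of 2.07 and 1.60 in the controls and of 3.37 and 5.42 without CD37, a log2 fold change of 0.91 (adjusted p = 0.132, limma). *Shc1*, an adaptor that couples beta chains to RAS, went from 5.85 and 6.27 to 9.32 and 12.03 (0.72, adjusted p = 0.145, limma). *Syk*, a tyrosine kinase, had values of 3.16 and 1.90 against 3.69 and 5.79 (0.70, adjusted p = 0.201, limma). *Ptpn11*, the phosphatase SHP2, had values of 0.800 and 1.22 against 1.61 and 2.27 (0.55, adjusted p = 0.188, limma). The other gene was *Stat5a*, named here after its values were seen (0.50, adjusted p = 0.198, limma). The median of the 11 was 0.38 beside 0.11 for all genes. The count of 5 was 6 after TPM rescaling, where the median of all genes was 0.40. It was 9 of 18 with limma-voom on the reads, beside 3270 of all 12901 genes in either direction. It was 2 after quantile normalization, 2 of 18 when all genes above 0 were fitted, and 3, 3, 4 and 0 without CD37fl/fl replicate 1, CD37fl/fl replicate 2, CD37-/- replicate 1 and CD37-/- replicate 2.

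Among negative regulators of the receptors, those that passed were higher as well. Of 15 listed, 10 were tested, and 3 were higher and 0 lower at an unadjusted p under 0.05, beside 16.1% and 7.96% of all genes tested. *Spry2*, a Sprouty inhibitor of RAS signaling induced by growth factors, had an FPKM of 3.47 and 4.12 in the controls and of 10.1 and 7.99 without CD37, a log2 fold change of 1.06 (adjusted p = 0.0908, limma). *Ptprc*, the phosphatase CD45 which restrains JAK kinases, had values of 0.766 and 0.841 against 1.78 and 2.93 (0.87, adjusted p = 0.117, limma). *Sh2b3*, the adaptor LNK which restrains JAK2 and Kit signaling, had values of 0.836 and 0.985 against 1.61 and 2.64 (0.69, adjusted p = 0.15, limma). The median of the 10 was 0.47, beside 0.11 for all genes. With TPM rescaling, where the median of all genes was 0.40, 7 of the 10 passed, and with quantile normalization 2. With limma-voom on the reads 6 of 14 passed, beside 3270 of all 12901 genes in either direction. With 1 library left out the count was 2 or 3, except without CD37-/- replicate 1, where it was 6.

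**Figure D5:**
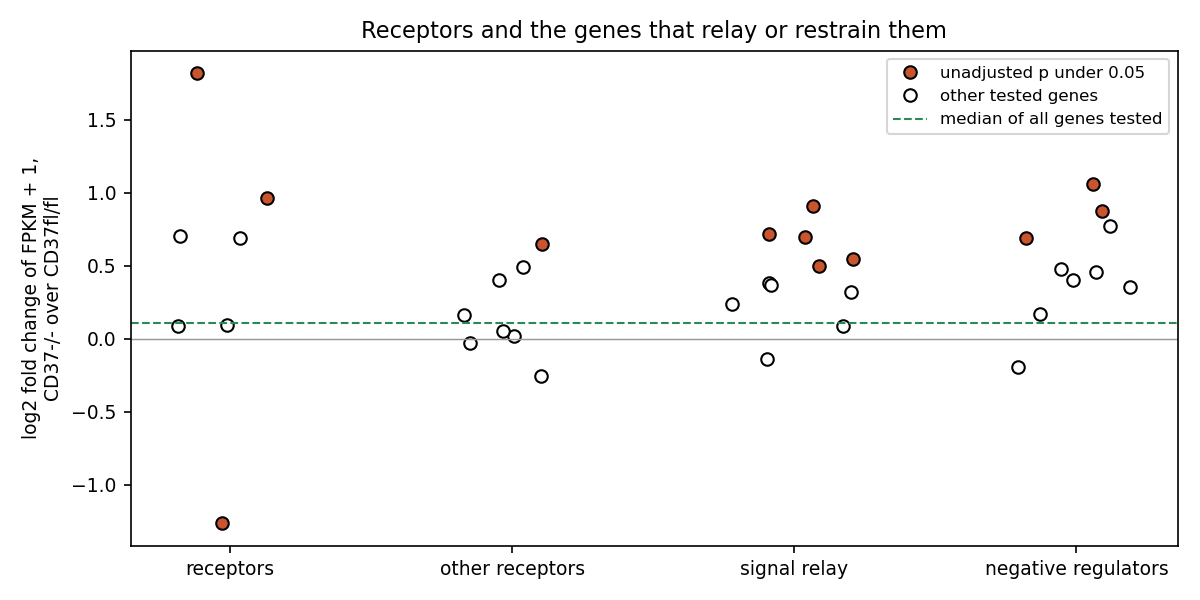
Log2 fold change of FPKM + 1 in CD37-/- over CD37fl/fl LSCs for the tested members of each gene list, 1 point per gene, spread sideways at random for legibility. Filled points have an unadjusted p under 0.05 (limma). Of the lists drawn, only the 7 receptors hold a filled point below 0, which is *Il3ra*, and the dashed line is the median of all genes tested at 0.11.

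On a log2 scale that compresses the low values of *Kit*, the genes nearest to it were *Zfand5*, *Vars* and *Tm9sf3*. They had the smallest Euclidean distances to *Kit* over the 4 libraries in centred log2(FPKM + 1), at 0.0231, 0.0320 and 0.0336, among 3103 candidates whose mean FPKM reached 5. *Zfand5* had an FPKM of 9.77 and 10.96 in the controls and of 11.2 and 12.1 without CD37. Since *Kit* varies little on this scale, such a pattern is one of a small rise from CD37fl/fl replicate 1 to the other libraries. The FPKM of *Kit* was 0.170 in CD37fl/fl replicate 1 and 0.434 in CD37-/- replicate 2, both below the pseudocount of 1. Its changes were therefore compressed far more than those of the candidates. The nearness holds on this scale only and does not show that these genes vary by the same factor as *Kit*.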

How the data were processed

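RNA of 2 CD37fl/fl and 2 CD37-/- LSC samples, taken 6 weeks after transplantation, was compared. The authors deposited FPKM values per gene and library, unlogged and not pooled. The submitters' processing notes name fastp 0.20.1, STAR 2.7.7a, featureCounts 2.0.0, edgeR and the build mm39. The annotation is not given in the sources used here, and the study's text names limma for differential expression. Names, spans and exon lengths were taken from GENCODE M21 on GRCm38 (17045 of 17104 identifiers, 99.7%), since the values multiplied by its spans gave whole reads for 16843 genes (98.5%) in all 4 libraries. With exon lengths, 10.9% to 11.5% of low values came out whole. Recovered reads gave the depths and an alternative test. 0 columns were left unmapped.

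Values were transformed as log2(FPKM + 1). A mean FPKM of at least 1 was reached by 6761 genes, which were tested by limma 3.58.1 in R 4.3.3 (lmFit, and eBayes with trended variance), with Benjamini-Hochberg adjustment at 0.05, and receptors with a lower mean were taken from a fit of all 16973 genes above 0. The code was tested on simulated data. Python 3.11.15 with pandas 2.3.3 and matplotlib 3.10.9 served for tables, sequences and figures. Named are all receptors, the tested ligands and partner chains, in each pathway list up to 4 genes per direction with the largest change at an unadjusted p under 0.05, the 3 genes nearest to *Kit*, and *Cd37*. The members and lists were chosen with earlier results of these data known. A further gene list is not reported here. Alternatives were a pseudocount of 0.1, all genes above 0 (also together with that pseudocount, added after seeing the data), exon length, a minimum mean FPKM of 5, TPM rescaling, quantile normalization, limma-voom on the reads (minimum mean 10), robust eBayes, the replicate number as a block and each library left out. Intervals from counts cover counting error only.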

Additional observations from a re-analysis of the deposited data

How the results depend on the processing

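With 2 libraries per genotype, no call reached an adjusted p under 0.05 for a receptor gene in any of the 13 alternatives, and the number at an unadjusted p under 0.05 was between 2 and 4, against 3 as reported (2 to 4 with 1 library left out). The median log2 fold change of the receptors tested, 0.69, was 0.14 over all genes above 0, where 10 rather than 7 receptors enter, and between 0.12 and 1.11 with 1 library left out. *Csf1r* turned to -0.12 and *Il6ra* to -0.011 after quantile normalization. With 1 library left out, *Csf1r* lay between -0.57 and 0.74, *Il6ra* between -0.050 and 0.31 and *Flt3* between -0.023 and 0.00099. When levels were ranked by FPKM per gene span, 6 of the 10 receptors took another place than per exon length, since the span counts introns. Over the whole table, the adjusted p was under 0.05 for 0 genes as reported, 88 with robust eBayes, 45 with a minimum mean FPKM of 5 and 21 with exon length. The cause was not tested. Same-numbered libraries did not deviate together (r = -0.0418 over 6761 genes), so the numbers are not taken as pairs. With the replicate block, 3 receptor genes passed the unadjusted p and 0 the adjusted p, the median was 0.69, and 73 genes of the whole table passed the adjusted p. Reads recovered for *Flt3* and *Kit* limit what can be said of them.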
